A study of Danio rerio with 2 samples.

Results

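The Dlx homeobox genes were followed in single cells of juvenile zebrafish cartilage. The 7 members are dlx1a, dlx2a, dlx3b, dlx4a, dlx4b, dlx5a and dlx6a, taken by gene symbol from the deposited gene list, where each symbol had 1 row among 35117 genes. Dlx genes encode homeodomain transcription factors. In the early pharyngeal arches of zebrafish and mouse they are expressed in a nested pattern: dlx1a and dlx2a throughout the arch, and dlx3b, dlx4a, dlx4b, dlx5a and dlx6a in its intermediate and ventral parts, where endothelin signalling maintains them and they specify the lower face. Several lie as neighbouring pairs that share enhancers.

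The nkx3.2 mutants carried el802 on both copies of the gene (el802/el802) and are labelled 22 days post fertilization. The WT animals are labelled 21 days. The protocol text gives 21 days for both libraries, so whether the ages differed is not settled. If they did, age and genotype cannot be told apart. All animals carried the transgenes Tg(sox10:DsRed)el10 and Tg(fli1a:EGFP)y1, and only live cells with both colours had been sorted, which sets which cells could be seen. Each group is 1 library, with 1996 mutant and 2051 WT cells kept. Because cells of 1 library are not replicates, no test was run, and all intervals are 95% intervals that cover counting error only. The number of animals behind each library is not given in the sources used here.

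The mutant library held 16349558 unique molecular identifiers (UMIs, each standing for 1 captured transcript) and the WT library 13927936, with medians of 7005 and 5781 per cell. Ribosomal protein genes took 53.3% of mutant and 48.0% of WT UMIs. Only 4 cell barcodes occurred in both libraries. The cartilage genes col2a1a and matn1 averaged 8318 and 5823 CPM (counts per 1000000 UMIs) in mutant cells outside cluster 5, described below, and 13911 and 9319 CPM in WT cells outside it. The labelled tissue's markers were thus abundant over the libraries, but in clusters 8, 12 and 13, which are described by their leading genes below, col2a1a stood at 251, 143 and 115 CPM in mutant and 253, 374 and 314 CPM in WT cells. The mutated gene itself, nkx3.2, a homeodomain factor of the jaw joint, stood at 41.5 CPM in the mutant library and 45.6 CPM in the WT library. Where el802 lies in the gene is not given in the sources used here, so this 3′ count does not check the genotype.

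Over all cells the family was a low-abundance group dominated by dlx5a and dlx3b. The 7 genes together gave 1559 UMIs in the mutant library and 1502 in the WT library, or 96.0 and 108 CPM. The 3′ kit counts 1 tag per transcript end, so levels of different genes can be set side by side without a length correction, although they still depend on how each 3′ end is annotated. dlx5a was the highest, with 34.9 CPM in mutant and 41.7 CPM in WT cells, followed by dlx3b with 26.2 and 31.8 CPM. Below these stood dlx2a (12.3 CPM in mutant, 14.6 CPM in WT), dlx1a (9.79 and 7.49 CPM) and dlx4a (7.39 and 8.94 CPM). dlx6a and dlx4b were the lowest members. dlx6a had 3.39 CPM in mutant and 1.73 CPM in WT cells, and dlx4b had 2.03 CPM in mutant and 1.95 CPM in WT cells. No single cell held more than 11.1% of any member's UMIs in either library, so no member's level came from 1 cell.

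Where among the sorted cells these UMIs lay was uneven. Cells were first grouped by marker genes, with no dlx gene read. In 12 groups set by UMI gates, 10 of them with at least 30 cells in each library, the summed family level was highest in the matn1-low cells, which failed every UMI gate and had few UMIs of the cartilage matrix gene matn1. It was 721 CPM in 215 mutant cells and 700 CPM in 148 WT cells of that group. The col10a1a-positive group, gated on the collagen X gene of maturing cartilage and bone, came next with 576 CPM in mutant and 541 CPM in WT cells. The intervals of these neighbours in rank lay apart (667 to 779 against 503 to 658 CPM in the mutant library, 634 to 772 against 485 to 601 CPM in the WT library). Their order depended on the gates, however. With doubled gate thresholds the col10a1a-positive group was highest in the mutant library, at 457 CPM, while matn1-low stayed highest in WT, at 497 CPM. In both groups most family UMIs came from cells of cluster 5, described below.

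The lowest levels were in cells richest in mature cartilage matrix and in the six2a-positive cells. matn1-high cells, the largest group with 646 mutant and 720 WT cells, had 10.3 CPM in the mutant library and 16.5 CPM in the WT library. six2a-positive cells had 24 UMIs (18.4 CPM) in the mutant and 2 UMIs (5.43 CPM) in the WT library. Between these extremes stood the f13a1b/mgp-positive cells (180 CPM in mutant, 197 CPM in WT), the fibrous cells (93.8 and 107 CPM), the ccl25b/cxcl12a-positive cells (92.3 and 111 CPM), the mmp13b-positive cells (70.2 and 41.7 CPM) and the fn1b/tgm2l-high cells (36.1 and 37.4 CPM). The matn1-moderate cells stood at 63.3 CPM in mutant and 278 CPM in WT, and are taken up with the genotypes. The fibrous, ccl25b/cxcl12a-positive and mmp13b-positive groups had overlapping intervals in the mutant library, so their order there is not fixed by these counts.

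Clustering without any dlx gene placed most of the family in 1 cluster. Of 15 clusters, cluster 5 held 149 mutant and 179 WT cells, 7.46% and 8.73% of each library. It held 58.8% of the mutant and 62.4% of the WT family UMIs. The interest in cluster 5 arose after its levels were seen. Its leading genes by fold over the other cells were si:ch211-153b23.5, cyp2ad2, si:ch211-63p21.2, the water channel gene aqp3a, the chemokine gene cxcl14 and emilin3a, a matrix glycoprotein gene. Of 149 mutant cells in it, 94 fell in the matn1-low group, 32 in the col10a1a-positive group and 20 in the matn1-moderate group. Of 179 WT cells, 72, 58 and 25 did. Of the matn1-low group's family UMIs, 593 of 649 mutant and 371 of 405 WT UMIs lay in cluster 5. Of the col10a1a-positive group's, 206 of 220 and 326 of 343 did. Outside cluster 5 the matn1-low cells stood at 116 CPM in mutant and 145 CPM in WT. The col10a1a-positive cells stood at 65.8 and 50.3 CPM there, and the f13a1b/mgp-positive cells at 180 and 177 CPM.

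Cluster 5 carried cartilage markers at a reduced summed level and stays unnamed. All 8 genes of the cartilage list were detected, at a summed 4480 CPM in mutant and 8380 CPM in WT cells of the cluster, against 26990 and 41731 CPM in the other cells. Not all 8 were reduced. sox9a stood at 16.0 and 23.2 CPM in mutant and WT cells of the cluster, against 6.24 and 9.37 CPM elsewhere. acana stood at 147 and 150 CPM, against 141 and 135 CPM elsewhere. The rest of the list was lower in the cluster. col10a1a was present at 1139 CPM in mutant and 3212 CPM in WT cells of the cluster, against 286 and 786 CPM elsewhere. mmp13b, a collagenase gene of late hypertrophic cartilage, had 0 UMIs in mutant and 3 UMIs (3.48 CPM) in WT cells of the cluster. Elsewhere it stood at 78.3 CPM in mutant and 366 CPM in WT cells. The sclerostin gene sost, an osteoblast-list member, stood at 129 and 107 CPM in mutant and WT cells of the cluster, against 6.43 and 7.38 CPM elsewhere. Of the other osteoblast-list genes, spp1, ifitm5 and bglapl were lower there. spp1, which encodes osteopontin, stood at 20.3 and 22.0 CPM in mutant and WT cells of the cluster, against 134 and 326 CPM elsewhere. sp7 had 1 UMI (1.45 CPM) in mutant and 0 in WT cells of the cluster, against 1.16 and 2.15 CPM elsewhere. ifitm5 had 2 UMIs in mutant and 0 in WT cells of the cluster and bglapl 0 and 3, while bglap had 0 UMIs in all cells of both libraries. The endothelial (kdrl, cdh5, pecam1), glial (mbpa, plp1b, foxd3, mpz) and muscle lists (acta1a, myl1, tnnt3b) had 0 UMIs there in both libraries. Elsewhere the endothelial list summed to only 0.386 CPM in mutant and 1.15 CPM in WT cells. The glial list gave 0.129 and 0.307 CPM there and the muscle list 0.579 and 2.23 CPM. Their absence therefore does not set the cluster apart. All 4 skin genes were detected. They summed to 812 CPM in mutant and 650 CPM in WT cells of the cluster, against 313 and 462 CPM elsewhere. Of these genes only krt4 and icn were higher in the cluster. krt5 was lower, at 4.36 and 1.16 CPM in mutant and WT cells of the cluster against 28.4 and 26.8 CPM elsewhere. cfd was lower as well, at 2.90 and 6.96 CPM against 61.5 and 109 CPM. The part of the skin genes in the family's level was not tested.

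Every member was higher in cluster 5 than in the other cells. For the summed family the level was 1330 CPM in cluster 5 against 41.4 CPM elsewhere in the mutant library, a ratio of 32.2 (29.0 to 35.6). In the WT library it was 1086 against 43.4 CPM, a ratio of 25.0 (22.5 to 27.8). The folds were steepest for dlx4a, at 81.6 in the mutant and 88.9 in the WT library, and for dlx1a, at 71.9 and 63.4. dlx6a followed at 66.1 and 36.6, dlx5a at 38.1 and 28.6 and dlx2a at 28.7 and 21.8. dlx3b was 16.7-fold higher in mutant and 13.8-fold higher in WT cells of the cluster. The lowest-count member, dlx4b, gave 11.3 (4.94 to 24.3) in the mutant library and 43.1 (17.5 to 121) in the WT library. Counting error alone leaves both dlx4b ratios wide. With at least 50 UMIs asked of a gene within a library, 6 of 6 members in the mutant library were at least 4-fold higher in cluster 5, against 2.93% of all genes. In the WT library 5 of 5 were, against 2.91%. dlx6a and dlx4b in WT and dlx4b in the mutant library fell below the count minimum. That minimum includes the UMIs of cluster 5 itself. Outside it dlx1a had 38 mutant and 20 WT UMIs, dlx4a 26 and 18, and dlx6a 14 in the mutant library. Such members passed only through the cluster where they were high, and the cluster was singled out by its Dlx levels. The counts are therefore a description and lend no support.

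**Figure D1:**
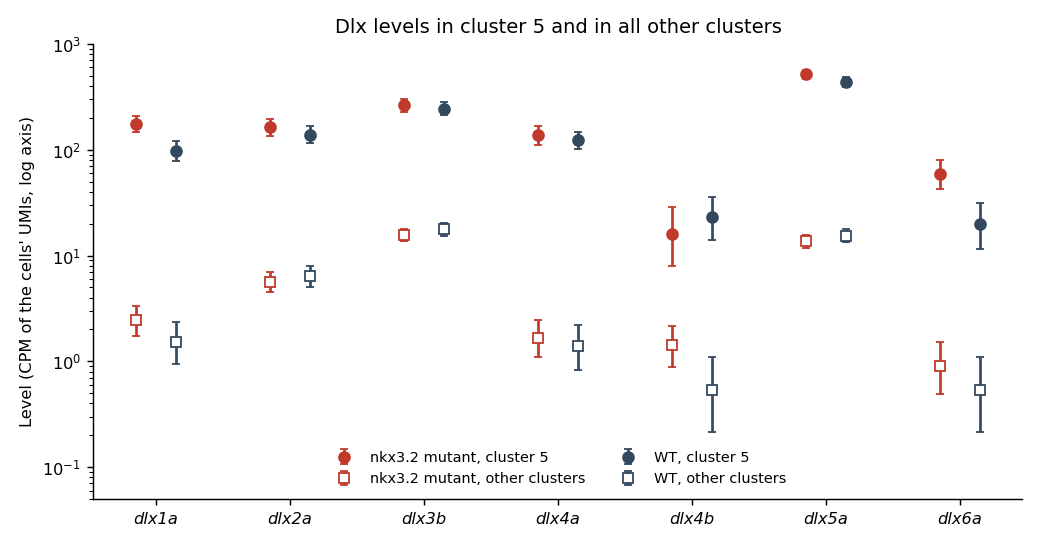
Level of each Dlx gene in counts per 1000000 UMIs (log axis), in cluster 5 (filled circles) and in all other clusters (open squares), for the nkx3.2 mutant library (red, left) and the WT library (dark blue, right); bars are 95% counting intervals. dlx5a reaches 517 CPM in mutant and 439 CPM in WT cells of cluster 5, and every member stands at least 11.3-fold above its level in the other cells of the same library.

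Outside cluster 5 the make-up of the family differed from cluster to cluster. In cluster 5, with both libraries summed, 39.7% of the family's 1853 UMIs came from dlx5a, 21.2% from dlx3b, 12.5% from dlx2a, 11.1% from dlx1a and 10.8% from dlx4a. dlx6a gave 3.13% and dlx4b 1.67%. Cluster 4, led by f13a1b, the matrix Gla protein gene mgp and stc2a, was the largest source elsewhere, with 485 UMIs. There dlx3b gave 41.0%, dlx5a 35.9% and dlx2a 12.2%, while dlx1a and dlx4a gave 3.09% each. The summed level in cluster 4 was 209 CPM in 197 mutant cells and 231 CPM in 168 WT cells.

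In clusters 12, 13 and 9 some members had no UMI, counted here over both libraries. In cluster 12, led by cfd and the keratin gene krt4 (19 mutant and 32 WT cells), dlx3b gave 47.7%, dlx2a 36.0% and dlx1a 14.0% of 86 UMIs. dlx5a gave 2 UMIs there, and dlx4a, dlx4b and dlx6a gave 0. With 86 UMIs, the upper Clopper-Pearson limit of a count of 0 lies below the 10.8% of dlx4a in cluster 5 but above the 1.67% of dlx4b and 3.13% of dlx6a there. Cluster 12 was thus a source of dlx1a, dlx2a and dlx3b with little of dlx5a, the most abundant member overall. In cluster 13, led by the osteoblast genes ifitm5 and bglapl (15 mutant and 29 WT cells), 72.2% of 36 UMIs were dlx3b and 19.4% dlx5a. Cluster 9, led by mmp13b, mmp9 and spp1, held 87 UMIs, of which 52.9% were dlx3b and 42.5% dlx5a, with 1 UMI of dlx2a and 0 of dlx1a, dlx4b and dlx6a. The upper limit of a count of 0 there is 4.15%, below the 11.1% of dlx1a in cluster 5 but above its dlx4b and dlx6a shares, so a lower share of those 2 members could not be shown at this depth. Among the lowest levels was that of cluster 7, led by crhbp and hyal4, with 4 UMIs (7.15 CPM) in 119 mutant cells and 2 UMIs (4.12 CPM) in 107 WT cells. In the mutant library cluster 6 stood lower, at 4.73 CPM (15 UMIs), with 14.1 CPM in WT, and the counting intervals of clusters 6 and 7 overlapped in each library.

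**Figure D2:**
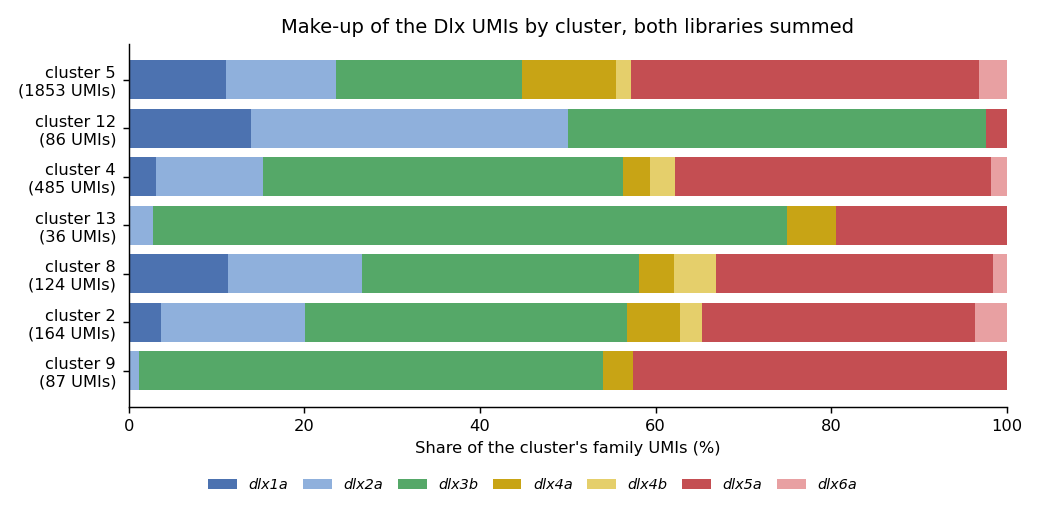
Share of each cluster's Dlx UMIs (%) that came from each of the 7 genes, both libraries summed, for the 7 clusters with the highest summed level; the number of UMIs stands beside the cluster. Cluster 12 is made of dlx1a, dlx2a and dlx3b with 2.33% dlx5a, while cluster 9 is nearly all dlx3b and dlx5a.

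Nearly every cell of cluster 5 held at least 1 member. To compare cells at 1 depth, each cell was thinned to 3100 UMIs, leaving out 190 mutant and 271 WT cells that were shallower. After thinning, 95.9% of 122 mutant cells and 96.7% of 153 WT cells of cluster 5 had a UMI of any member. In all other clusters the share was 9.26% of 1684 mutant and 9.28% of 1627 WT cells. As a background, 2 of 98 mutant and 2 of 79 WT cells of cluster 7 had one, with median depths of 4203 and 4076 UMIs before thinning, against 4666 and 4653 UMIs in cluster 5. Over the whole libraries the thinned share was 15.1% in the mutant and 16.8% in WT, and without thinning 21.4% and 20.6%.

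Within cluster 5 the members differed in how many cells they reached. dlx5a was found in 70.5% of mutant and 67.3% of WT cells and dlx3b in 54.9% and 52.9%. dlx2a reached 39.3% of mutant and 32.0% of WT cells, dlx1a 37.7% and 26.1%, and dlx4a 32.8% and 28.1%. dlx6a was found in 16.4% of mutant cells (10.3 to 24.2%) and 6.54% of WT cells (3.18 to 11.7%). dlx4b was found in 4.92% and 4.58%. At this depth a cell without a UMI cannot be called a cell without the transcript. At least 3 members were found together in 46.7% of mutant and 32.7% of WT cells of cluster 5, against 0.356% and 0.369% of the other cells. Without thinning these shares in cluster 5 were 65.1% and 56.4%, no cell held all 7 members, and 4 of 149 mutant and 6 of 179 WT cells held none.

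**Figure D3:**
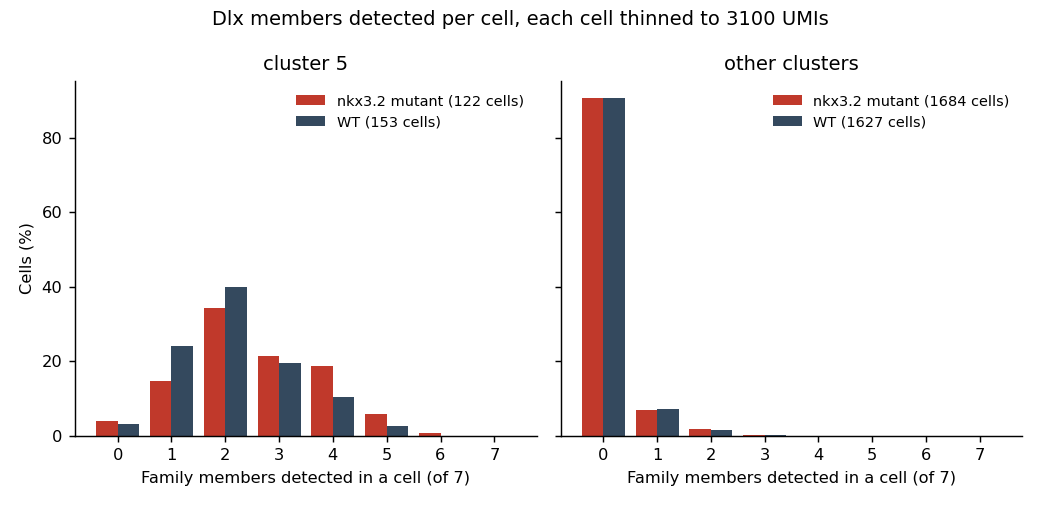
Percentage of cells by the number of Dlx members with at least 1 UMI, after thinning each cell to 3100 UMIs, in cluster 5 (left) and in all other clusters (right), for the nkx3.2 mutant library (red) and the WT library (dark blue). In cluster 5 most cells hold 1 to 4 members, and outside it 90.7% of mutant and 90.7% of WT cells hold none.

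How often members were found together in single cells, relative to their separate shares, depended on how finely cells were grouped, and the excess was small inside cluster 5. For each of the 21 pairs, the number of thinned cells with both genes was set over the number given by the product of the separate shares, taken within each library and cell group. Within marker-gated groups the sum over pairs was 396 against 198 in the mutant library, a ratio of 2.0, and 335 against 194 in the WT library, a ratio of 1.73. Within clusters the ratios were 1.13 in the mutant and 1.09 in WT. With each library as 1 group they were 6.87 and 5.63. Over both libraries 20 of 21 pairs stood above 1 within gated groups, and 14 of 21 did within clusters. Cluster 5 held 630 of the 731 joint detections. Inside it, at the same thinned depth, the ratio was 1.05 in the mutant (343 against 326) and 1.0 in WT (287 against 287), with 11 of 21 pairs above 1 over both libraries.

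The neighbouring pairs were compared with the rest as a description. In the RefSeq annotation of the GRCz12tu assembly no gene lies between dlx1a and dlx2a, between dlx3b and dlx4b or between dlx5a and dlx6a. These 3 pairs had a summed ratio of 1.24 within clusters (78 cells against 62.9), and the 18 other pairs 1.10 (653 against 594). dlx5a and dlx6a were together in 30 cells against 22.0, a ratio of 1.36. Inside cluster 5, at 3100 UMIs, dlx5a and dlx6a had the highest ratio of all pairs, 1.21, with 25 cells against 20.6; 25 of the 30 cells with dlx6a also had dlx5a. The pair dlx2a and dlx4a, which are no neighbours, had 1.20 (35 against 29.3), dlx1a and dlx2a 1.15 (35 against 30.3), and dlx3b and dlx4b 1.0 (7 against 7). Without thinning, dlx1a and dlx2a had the highest ratio in cluster 5, 1.25 (73 against 58.3). At that depth dlx5a and dlx6a had 1.13 (40 against 35.3) and dlx2a and dlx4a 1.06 (71 against 67.0). The order of the pairs thus changed with depth. These ratios rest on few cells and were not tested against each other.

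**Figure D4:**
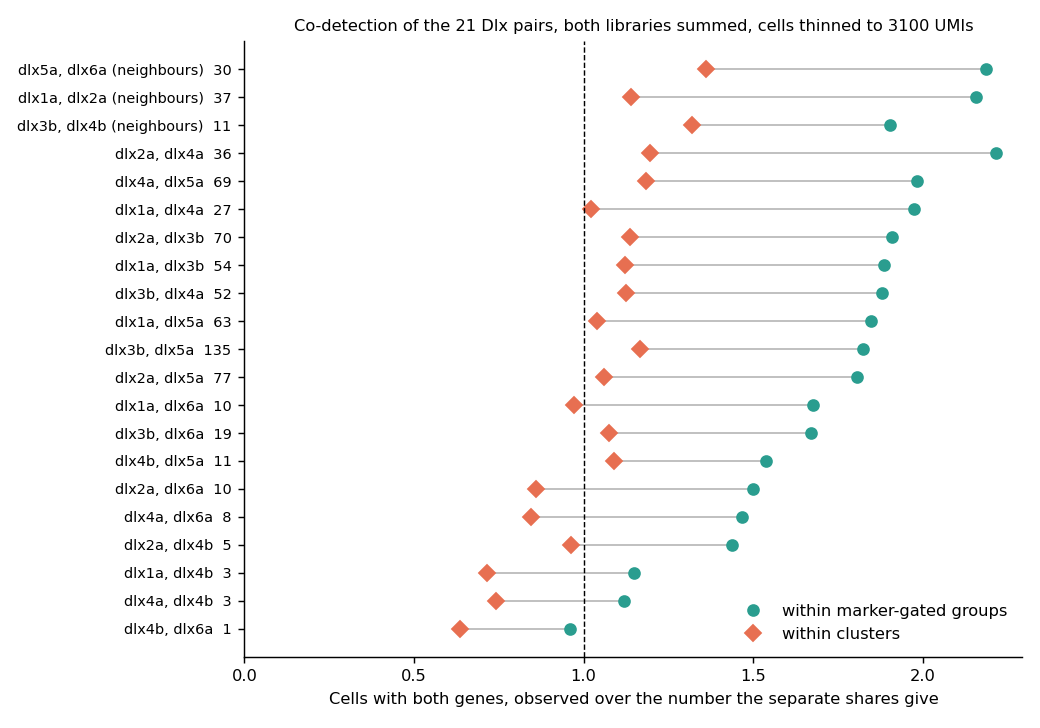
Cells with a UMI of both genes over the number that the separate shares give (x axis, no unit; 1 is the dashed line), for the 21 pairs of Dlx genes, both libraries summed and each cell thinned to 3100 UMIs. Shares were taken within marker-gated groups (circles) or within clusters (diamonds); the number beside each pair is its count of cells with both, and all 21 ratios are lower within clusters, where the pairs together give 1.11.

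The levels of the members across groups ran together. Over 20 points, the 10 gated groups in each of the libraries, Pearson's r of log2(CPM + 10) between members ranged from 0.705 (dlx4b with dlx6a) to 0.949 (dlx1a with dlx4a). Points of 1 library share its depth and free RNA. The matn1-low and col10a1a-positive points also drew most of their family UMIs from cluster 5, where every member was higher. The values of r are therefore a description, and how far they rest on that cluster was not tested. Among 3639 other genes ranked, those most like the summed family were tle3a, a Groucho-type corepressor gene (r = 0.945), the glutamate dehydrogenase gene glud1b (0.924), the lysophosphatidic acid receptor gene lpar1 (0.915), the cytochrome oxidase subunit gene cox4i2 (0.912) and the splicing kinase gene clk4a (0.909). Of their UMIs, 27.0%, 18.7%, 22.7%, 36.2% and 13.8% lay in cluster 5, in the same order. For single members, lpar1, tuft1a and adrb3a were most like dlx2a, lpar1, tle3a and pdcd4b most like dlx3b, and tle3a, emilin3a and adrb3a most like dlx5a. None of the 5 genes most like the family was among the top 5 when clusters replaced gates, where their r was 0.666 to 0.815 over 24 points.

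The design compares the nkx3.2 mutant with WT. Over all cells the summed family was lower in the mutant library, at a log2 ratio of -0.17 or a ratio of 0.887 (0.826 to 0.953), but stood at 0.078 with each cell weighted equally. The median of all genes with at least 50 UMIs was -0.12. Scaling by TMM (trimmed mean of M values) moved the median of genes with at least 20 UMIs from -0.13 to 0.01 and the family to -0.032, so the family lay close to the median gene under either scaling. dlx2a had a ratio of 0.842 (0.689 to 1.03), dlx3b 0.824 (0.719 to 0.943), dlx4a 0.827 (0.638 to 1.07) and dlx5a 0.837 (0.744 to 0.942), with dlx4a and dlx5a at or above 1 under equal cell weights. dlx4b had 33 mutant and 27 WT UMIs, a ratio of 1.04 (0.609 to 1.81).

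dlx6a and dlx1a stood higher in the mutant library over all cells, under each alternative listed at the end. dlx6a had 55 UMIs in the mutant and 24 in the WT library, a ratio of 1.96 (1.19 to 3.31). dlx1a had 159 and 104 UMIs, a ratio of 1.31 (1.01 to 1.69). With a fold of at least 1.5 taken as a call, 1 of 7 members was higher, dlx6a, against 11.7% of all genes with at least 50 UMIs. None of the 7 was lower, against 20.4% of those genes. A share of 1 in 7 is near that background, so the count alone sets the family apart from other genes in neither direction.

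Inside cluster 5 the same pair of genes was higher in the mutant library. This result shares most of its UMIs with the one over all cells and is not separate from it. Cluster 5 held 121 of 159 mutant and 84 of 104 WT dlx1a UMIs, and 41 of 55 and 17 of 24 dlx6a UMIs. dlx1a stood at 176 CPM in mutant and 97.4 CPM in WT cells of the cluster, a ratio of 1.80 (1.35 to 2.41). dlx6a had 59.5 CPM in mutant and 19.7 CPM in WT cells, from 41 and 17 UMIs, a ratio of 3.02 (1.68 to 5.67). dlx5a had 517 and 439 CPM, a ratio of 1.18 (1.02 to 1.36), and dlx2a 163 and 139 CPM, a ratio of 1.17 (0.896 to 1.53). For dlx3b the ratio was 1.07 (0.876 to 1.32), for dlx4a 1.11 (0.832 to 1.48) and for dlx4b 0.689 (0.298 to 1.51). The summed family was 1.22-fold higher (1.12 to 1.34) in mutant cells of the cluster. Of 6 members with at least 50 UMIs there, 2 were at least 1.5-fold higher, against 10.4% of all genes, and 0 were lower, against 17.8%. This minimum counts both libraries together. dlx6a, called higher, passed it mostly through its 41 mutant UMIs, and dlx4b, at 0.689 from 11 mutant and 20 WT UMIs, fell below it. The count of members called is therefore a description and lends no support.

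The summed family, lower over all cells and higher inside cluster 5, differed little outside it when those cells were pooled. There its level was 41.4 CPM in mutant and 43.4 CPM in WT cells, a ratio of 0.953 (0.850 to 1.07). Single clusters outside it moved both ways. Among those with at least 30 cells in each library, ratios ran from 0.334 (0.146 to 0.782) in cluster 6 to 3.46 (1.35 to 9.94) in cluster 11. Among single members outside cluster 5, only dlx4b had an interval that left out 1, at a ratio of 2.63 (1.09 to 7.29) from 22 mutant and 7 WT UMIs, against 0.689 in cluster 5. Cluster 5 was 7.46% of mutant and 8.73% of WT cells. Over all kept cells, cluster 5 included, the median was 6999 UMIs per cell in the mutant library and 5778 in WT. The cells of cluster 5 itself had like depths in both libraries, at medians of 4666 and 4653 UMIs.

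**Figure D5:**
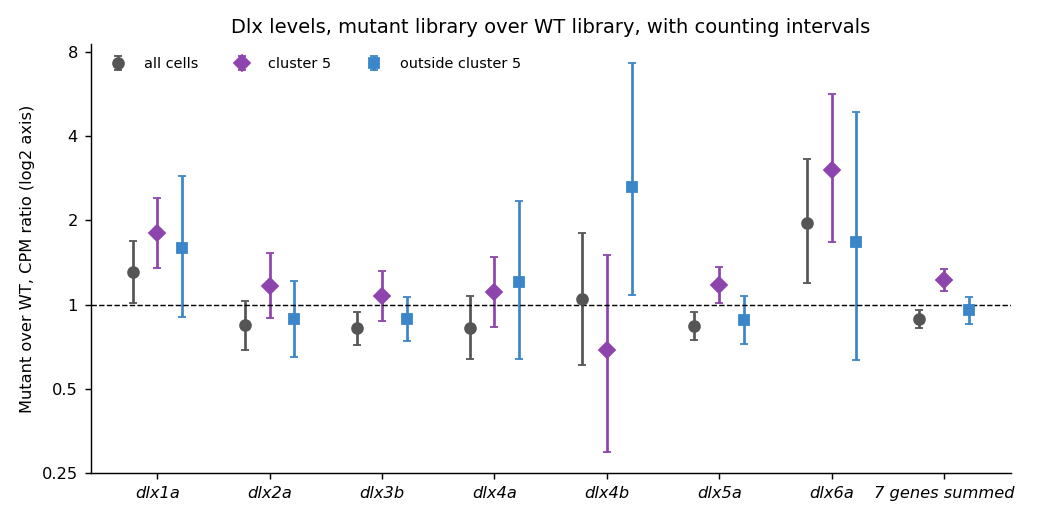
Mutant over WT ratio of CPM (log2 axis, 1 is the dashed line) for each Dlx gene and for the 7 summed, over all cells (grey circles), in cluster 5 (purple diamonds) and outside cluster 5 (blue squares), each from 1 library per genotype; bars are 95% counting intervals. dlx6a stands at 3.02 and dlx1a at 1.80 in cluster 5, and the summed family is 0.887 over all cells, a direction that turns when each cell has equal weight, against 1.22 in the cluster.

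The markers inside cluster 5 also differed between the libraries. In the mutant library 94 of its 149 cells were matn1-low and 32 were col10a1a-positive, whereas in WT 72 and 58 of 179 were. In the matn1-low cells of the cluster dlx1a stood at 212 CPM in mutant and 93.0 CPM in WT, a ratio of 2.28 (1.51 to 3.53). In its col10a1a-positive cells dlx1a stood at 82.9 CPM in mutant and 91.2 CPM in WT, a ratio of 0.910 (0.441 to 1.80). The difference between these 2 ratios was not tested. dlx6a was higher in both, at 2.77-fold (1.22 to 7.05) in the matn1-low and 3.51-fold (1.22 to 11.4) in the col10a1a-positive cells. These came from 27 against 8 and 12 against 6 UMIs. In the matn1-moderate cells of the cluster dlx6a stood at 0.909 (0.0759 to 7.93), from 2 against 3 UMIs. dlx1a stood there at 1.57 (0.698 to 3.59), from 15 against 13 UMIs.

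By gated group, the family's interval lay below 1 in 2 groups and above 1 in none. It was lower in mutant matn1-moderate cells, at 63.3 CPM against 278 CPM in WT, a ratio of 0.228 (0.181 to 0.287). In that group 20 of 251 mutant cells but 25 of 111 WT cells belonged to cluster 5, and outside cluster 5 its level was 17.3 CPM in mutant and 66.9 CPM in WT. It was also lower in matn1-high cells, with a ratio of 0.627 (0.450 to 0.869), of which 0 mutant and 1 WT cell belonged to cluster 5. The matn1-low and col10a1a-positive groups had ratios of 1.03 (0.908 to 1.17) and 1.07 (0.896 to 1.27), and both stood below 1 with doubled gates. In 4 of 10 groups the family was higher in the mutant library, and in 6 of 10 with totals that leave out mitochondrial and ribosomal protein genes. matn1, which sets the gates of the 3 matn1 groups, was itself lower in the mutant library, at 5823 CPM against 9319 CPM in WT outside cluster 5; its part in these ratios was not tested.

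Cells with an nkx3.2 UMI had fewer Dlx UMIs than the rest over all cells, but outside cluster 5 the direction was within counting error at matched depth. In cluster 5 nkx3.2 stood at 4.36 CPM in mutant and 5.80 CPM in WT cells against 43.1 and 48.3 CPM elsewhere. At 3100 UMIs the summed family was 65.2 CPM in 188 mutant cells with an nkx3.2 UMI and 143 CPM in those without. In the WT library it was 51.4 CPM in 182 cells with and 154 CPM in those without. Outside cluster 5 the levels were 43.1 against 48.3 CPM in mutant cells, a ratio of 0.893 (0.566 to 1.35). In WT cells outside it they were 41.2 against 53.9 CPM, a ratio of 0.764 (0.475 to 1.17). Without thinning, where deeper cells show nkx3.2 more often, the ratios outside cluster 5 were 0.588 (0.472 to 0.727) in the mutant and 0.651 (0.504 to 0.830) in the WT library.

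Of the Hox genes, those counted here mark the arches behind the jaw. hoxa13b and hoxd12a, among the leading genes of cluster 3, were not counted and had 0 UMIs in cluster 5. Cells with a UMI of hoxa2b, hoxb2a, hoxb3a, hoxd3a or hoxd4a had a summed Dlx level 4.61 times that of other cells in the mutant library and 4.31 times in the WT library, after thinning. Cluster 5 held hoxd4a at 66.8 CPM in mutant and 40.6 CPM in WT cells and hoxb3a at 46.5 and 35.9 CPM. Within cluster 5 the ratio was 1.14 (0.950 to 1.36) in the mutant and 1.43 (1.18 to 1.71) in the WT library, and outside it 2.62 (1.88 to 3.60) and 1.96 (1.28 to 2.89). In cluster 4, which also held these genes, Dlx was lower in hox-positive cells, at 0.802 (0.526 to 1.20) in the mutant and 0.547 (0.327 to 0.878) in WT.

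Other genes of arch patterning were taken from a list of 55, of which 49 had at least 20 UMIs. The list covers endothelin, BMP and Notch signalling and the factors of the dorsal, joint and ventral domains. In the mutant library 14 were higher and 35 lower, with a median log2 ratio of -0.29, beside -0.13 for all genes, of which 41.9% were higher. Under TMM 18 were higher and 31 lower, with a median of -0.15 against 0.01 for all genes. Among the most abundant, prrx1b, a paired-type homeobox gene of skeletal mesenchyme, had 48.0 CPM in mutant and 25.8 CPM in WT, a ratio of 1.86. six2a and prrx1a stood at 1.76 and 1.59. These ratios are over all cells, and the cell make-up differed between the libraries. The six2a-positive cells, gated on six2a itself, were 4.96% of mutant and 1.71% of WT cells. The part of cell make-up in the ratios was not tested. The Hairy-type repressor genes her9 and her6 stood at 0.678 and 0.836, and the forkhead genes foxc1b and foxc1a at 0.662 and 0.818. twist1a had a ratio of 0.881 and furina, a proprotein convertase gene that acts on endothelin, 0.809.

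Of the 49, 19 were higher in cluster 5 than elsewhere in both libraries, 23 were lower in both and 7 differed between the libraries. The share of all genes in each direction is not given here, so these counts do not set the list apart from other genes. furina was among those higher, at 118 and 139 CPM in mutant and WT cells of the cluster against 49.9 and 60.3 CPM elsewhere. prrx1b had 0 UMIs in cluster 5 in either library, against 50.1 CPM in mutant and 27.5 CPM in WT cells elsewhere. six2a had 1.45 CPM in mutant and 1.16 CPM in WT cells of the cluster, against 85.3 and 49.6 CPM elsewhere.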

How the data were processed

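Single cells from 1 nkx3.2 mutant and 1 WT library were captured with the 10x 3′ v2 kit, per the labels. The authors deposited UMI counts per gene and barcode, made with Cell Ranger per the submitters' processing notes; its version and the genome build are not given in the sources used here. The members, gene lists and comparisons were chosen with earlier results of these data known, and the gate thresholds and the interest in cluster 5 were set after the data were examined. Named genes were the members, the 10 arch-list genes with most UMIs and the genes most like the family by correlation; further genes named as cluster leaders, markers or hox genes were chosen after their values were seen.

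Barcodes needed 500 UMIs, 300 genes and no more than 20% mitochondrial UMIs, and 0 failed. Scrublet calls (9 mutant and 3 WT cells, too few to find doublets of like cells) and cells over 5% globin UMIs (0 and 3) were left out. Gates in order asked for 3 UMIs of mmp13b, 3 of ifitm5, 5 of ccl25b and cxcl12a, 5 of cfd, 3 of col10a1a, 10 of fn1b and tgm2l, 5 of f13a1b and mgp, 3 of col5a1, postnb and mfap2 (fibrous) and 3 of six2a; 615 of 4047 cells passed more than 1. The rest were split at 10 and 50 matn1 UMIs per 10000, with 285 cells within 20% of a cut. Leiden clusters used 2000 variable genes without dlx rows, 30 components, 20 neighbours and resolution 1 (scanpy 1.11.5, leidenalg 0.10.2). Levels are CPM of summed UMIs with exact Poisson intervals, ratios have exact conditional binomial and shares Clopper-Pearson intervals, at 95%. For log2 ratios, counts under 3 were set to 3. TMM factors came from edgeR 4.0.16. Without replicate libraries no test was run. Data were simulated with counting error only, with 8966 genes for the all-cells comparison. True log2 ratios of 1 and -1 were recovered at medians of 1.00 and -0.97, after the known shift in composition was taken off. The simulation held no variation between cells, animals or libraries, so it checks the calculation alone.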

Additional observations from a re-analysis of the deposited data

Results flagged for a closer look

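The summed family moved in opposite directions between clusters, with counting intervals that exclude 1 on both sides; the differences between clusters were not tested. It was higher in the mutant library in cluster 5, at a ratio of 1.22, in cluster 2, led by s100a11 and tnmd, at 1.74 (1.27 to 2.40, 85 and 79 UMIs), in cluster 9 at 1.81 (1.16 to 2.84, 49 and 38 UMIs) and in cluster 11, led by the replication genes rrm2 and pcna, at 3.46 (1.35 to 9.94, 16 and 7 UMIs). It was lower in cluster 1, led by fkbp9 and prss35, at 0.367 (0.167 to 0.722, 10 and 60 UMIs) and in cluster 6, led by cxcl8a, at 0.334 (0.146 to 0.782, 15 and 12 UMIs). Among members the same held for dlx5a, at 1.18 (1.02 to 1.36) in cluster 5 and 0.157 (0.0181 to 0.623) in cluster 1. The cluster 1 value rests on 2 mutant and 28 WT UMIs.

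By gated group, dlx1a stood at 1.66 in matn1-low and 0.350 in matn1-moderate cells, and dlx3b at 2.76 in mmp13b-positive and 0.198 in matn1-moderate cells, mutant over WT. The share of cluster 5 cells in the matn1-moderate group differed between the libraries, as given above. Of that group's dlx1a UMIs, 15 of 17 mutant and 13 of 13 WT UMIs lay in cluster 5. Within these cluster 5 cells the dlx1a ratio was 1.57 (0.698 to 3.59). For dlx3b it was 0.835 (0.446 to 1.53), from 19 and 31 UMIs. The part of the cluster 5 share in the group's ratios was not tested.

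A further family gene outside the 7, dlx2b, was counted in the same files: 13 UMIs in the mutant and 12 in the WT library, 25 in all, in 22 cells. Of these, 22 lay in clusters 9 and 13, led by mmp13b and ifitm5, and 0 in cluster 5, where the members were highest.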

How the results depend on the processing

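No paired analysis was possible because each genotype has 1 library and no test was run. Over all cells the family's log2 ratio of -0.17 stood at -0.022 without mitochondrial and ribosomal protein genes in the totals, at -0.032 with TMM factors and at 0.078 with each cell at equal weight, where dlx5a reversed to 0.016; the cause was not tested. Without cluster 5, an alternative added after the data were examined as were those for cluster 5, dlx4a moved to 0.27 and dlx4b, on 22 mutant and 7 WT UMIs, to 1.40. In cluster 5 the summed family and dlx1a and dlx6a stayed higher in the mutant library under the 6 alternatives run; resolution 0.5 gave the same cells, and a gate on 5 leading genes gave a family log2 ratio of 0.17 with dlx5a at 0.013 and dlx3b, at 0.10 in the main value, at -0.12. The highest family level among groups was 457 CPM in mutant and 497 CPM in WT cells with doubled gates, 1330 and 1086 CPM with clusters, and 1515 and 1355 CPM without mitochondrial and ribosomal protein genes in the totals. With doubled gates the top group changed to col10a1a-positive in the mutant library and stayed matn1-low in WT. Groups with a higher family level in the mutant library were 4 of 10, 3 of 9 with doubled gates, 6 of 10 without mitochondrial and ribosomal protein genes in the totals and 8 of 12 with clusters. Without thinning the share of cells with a member was 21.4% in mutant and 20.6% in WT. The co-detection ratio was 2.25 in mutant and 2.10 in WT without thinning, 6.87 and 5.63 with each library as 1 group, and 1.13 and 1.09 within clusters. The arch list's median was -0.15 with TMM. Of the 5 genes most like the family, 0 stayed in the top 5 with clusters. The log2 ratio of nkx3.2-positive over negative mutant cells moved from -1.14 to -1.79 without thinning, and that of hox-positive mutant cells from 2.20 to 1.55. Depth limits dlx4b and dlx6a most, at 60 and 79 UMIs over both libraries.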
